A study of Danio rerio with 7 samples.

Results

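Macrophage and myeloid identity genes were followed in cells sorted from adult zebrafish (Danio rerio) hearts after cryoinjury, a freezing injury of the ventricle that the fish heart repairs. The genes were taken by name: MPEG1, laptm5, csf1r, spi1, grna.2, marco, mrc1, lcp1 and coro1a, each in any letter case and with or without a final paralog letter. These 9 names matched 14 of the 31388 gene IDs in the table. They were 3 IDs named MPEG1, csf1ra and csf1rb, SPI1 and spi1a, mrc1b and MRC1, and 1 ID each for laptm5, grna.2, marco, LCP1 and CORO1A.

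The libraries came from pools of mCherry-positive cells of the ventricular apex. There were 3 pools taken 60 days post injury (dpi), numbered 1, 2 and 4, and 4 pools taken at 7 dpi, numbered 1 to 4. All fish of both groups carried postnb:CreERT2 and ubb:loxP-GFP-loxP-mCherry, were 3 to 9 months old, and received 10 µM 4-OHT, the tamoxifen metabolite that activates the recombinase, at 3 and 4 dpi. The label therefore depends on postnb, a periostin gene of activated fibroblasts, being in use at that time, and uninjured or unlabelled cells were not analysed here. Each pool held 3 to 5 hearts, and 0.2 to 0.6 ng of RNA went into a library; nothing says whether the pools came from separate experiments, so p-values measure only the spread between them. Values are TPM, the share of each gene among transcripts, corrected for gene length and scaled to a fixed sum per library, so the depth behind them is unknown.

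Macrophages are tissue phagocytes that develop from myeloid precursors under the transcription factor PU.1, the product of the SPI1 gene, and depend on signals through the receptor CSF1R. In injured hearts they clear dead cells and shape the scar, and in zebrafish the promoters of mpeg1 and csf1ra are used to mark them. Several genes in the set, such as LCP1 and CORO1A, are used by white blood cells in general and do not single out macrophages.

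The set was lower at 60 dpi for most of its IDs and by very different amounts. Of the 14 IDs, 13 reached 1 TPM in 3 or more libraries and were tested with limma, an empirical Bayes linear model, on log2(TPM + 1). Of these, 9 fell at 60 dpi at a Benjamini-Hochberg adjusted p under 0.05, none rose and 4 did not pass. All 13 had a negative log2 fold change, so none was higher at an unadjusted p under 0.05 either. Without the mean-variance trend of the limma fit only 4 fell, grna.2, mrc1b, laptm5 and csf1ra. Across all 15130 tested IDs 6.88% passed, 3.68% lower and 3.2% higher at 60 dpi. With TPM rescaled over the named IDs, 812 of all IDs fell and 376 rose, against 557 and 484 as deposited. The median log2 fold change (60 minus 7 dpi) was -2.01 for the 13 IDs and -0.04 for all tested IDs. In the same 9 IDs every pool at 60 dpi lay below every pool at 7 dpi, against 11% of all tested IDs. In such sorted pools fewer cells of a type and less RNA per cell cannot be told apart.

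**Figure D1:**
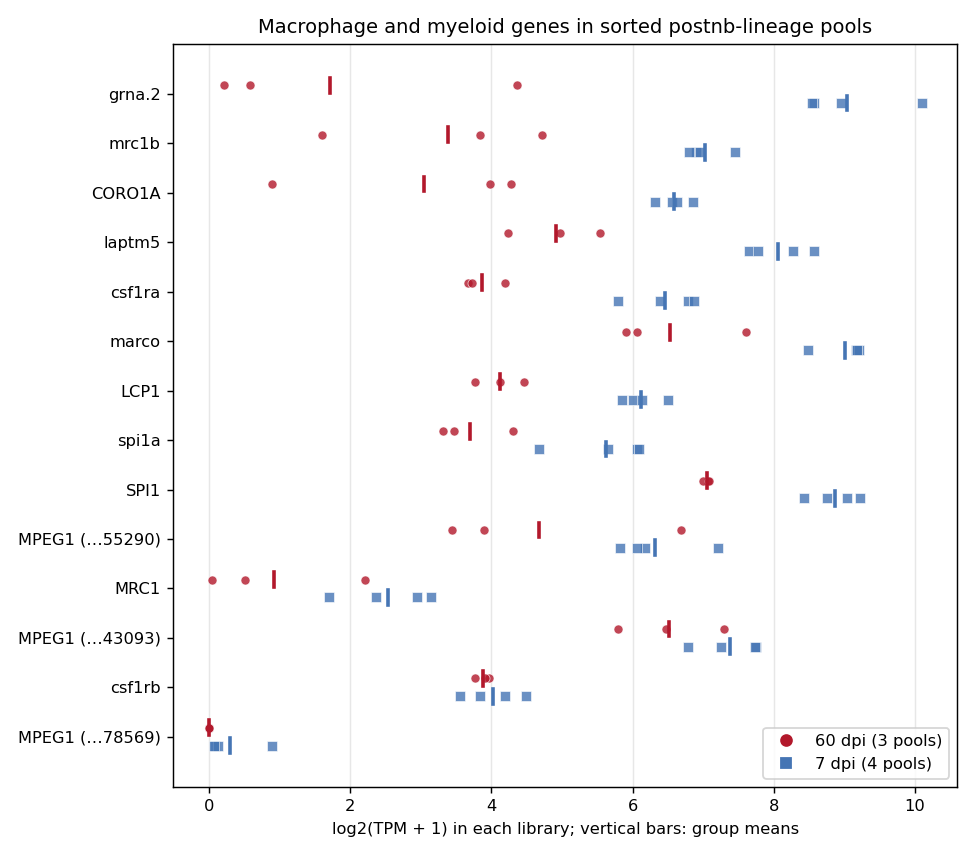
Level of each ID on a log2(TPM + 1) axis, 1 point per library (circles, 60 dpi; squares, 7 dpi) with vertical bars at the group means, for all 14 IDs; IDs that share the symbol MPEG1 carry the last digits of their ID. From grna.2 down to SPI1 the circles and squares do not overlap, whereas they do for 2 MPEG1 IDs, MRC1 and csf1rb.

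The SPI1 genes encode PU.1 proteins, transcription factors of the ETS family that myeloid cells need to form. The ID named SPI1 had 133, 126 and 135 TPM in the 60 dpi pools and 595, 344, 430 and 526 TPM in the 7 dpi pools. The 60 dpi pools were nearly alike, with a mean of 132 ± 4.63 TPM (SD, n = 3), and the lowest 7 dpi pool had more than the highest of them. SPI1 fell by 1.81 ± 0.28 on the log2 scale (SE, limma adjusted p = 0.00326).

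Its paralog spi1a had lower levels, 8.94, 18.7 and 10.1 TPM at 60 dpi, against 65.9, 49.5, 67.5 and 24.6 TPM at 7 dpi. The gap between the groups was narrow, between replicate 2 at 60 dpi and replicate 4 at 7 dpi. spi1a fell by 1.93 ± 0.50 on the log2 scale (SE, limma adjusted p = 0.0404). This call was lost when 7 dpi replicate 1, 2 or 3 was left out (limma adjusted p = 0.0992, 0.0942 and 0.126) and without 60 dpi replicate 1 or 4 (0.106 and 0.0889).

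CSF1R is the receptor tyrosine kinase for the growth factors CSF1 and IL34. In zebrafish csf1ra acts in macrophages and in yellow pigment cells. csf1ra had 11.8, 12.2 and 17.2 TPM at 60 dpi, against 109, 54.3, 82.5 and 116 TPM at 7 dpi. The highest 60 dpi pool lay far below the lowest 7 dpi pool, and csf1ra fell by 2.60 ± 0.41 on the log2 scale (SE, limma adjusted p = 0.00427). This call held in all 19 alternatives tried.

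csf1rb, the second zebrafish CSF1R gene, had 14.7, 12.6 and 14.1 TPM at 60 dpi, against 17.2, 13.3, 10.8 and 21.4 TPM at 7 dpi. All 60 dpi values lay inside the range of the 7 dpi values. The log2 fold change was -0.13 ± 0.52 (SE, limma adjusted p = 0.921) and did not pass in any of 19 alternatives. csf1ra exceeded csf1rb in every 7 dpi pool but not in 60 dpi replicates 1 and 2.

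MARCO, a class A scavenger receptor that binds bacteria and debris, had 65.6, 59.2 and 194 TPM at 60 dpi, against 572, 356, 590.4 and 579 TPM at 7 dpi. Replicate 4 stood above the other 60 dpi pools but below all 7 dpi pools. marco fell by 2.48 ± 0.40 on the log2 scale (SE, limma adjusted p = 0.00478). It was the most abundant of the 14 IDs in 60 dpi replicate 4 and was so too in 7 dpi replicate 3.

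The mannose receptor gene MRC1 encodes an endocytic lectin that marks some tissue macrophages and, in zebrafish, lymphatic and scavenger endothelium as well. mrc1b had 25.2, 2.03 and 13.3 TPM at 60 dpi, against 118, 110, 175 and 123 TPM at 7 dpi. The 60 dpi pools differed among themselves more than 10-fold, yet all were lower than any 7 dpi pool. mrc1b fell by 3.64 ± 0.62 on the log2 scale (SE, limma adjusted p = 0.00595), which held in all 19 alternatives.

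The ID named MRC1 was near the lower end of detection, with 3.64, 0.42 and 0.03 TPM at 60 dpi, against 7.82, 2.24, 4.15 and 6.68 TPM at 7 dpi. Its groups overlapped through 60 dpi replicate 1 and 7 dpi replicate 2. The log2 fold change was -1.61 ± 0.86 (SE, limma adjusted p = 0.298). stab2, a receptor gene of scavenger endothelium, was low in both groups, at 0.24 to 4.06 TPM at 60 dpi, against 0.19 to 1.34 TPM at 7 dpi. It was added after its values were seen and does not stand for endothelial genes as a whole. The endothelial list also holds stab1, lyve1a, lyve1b and FLT4, whose values are not shown, so stab2 is a selection. That list summed to 309 to 362 TPM at 60 dpi, against 128 to 328 TPM at 7 dpi. The part of endothelial cells in the mrc1b values was not tested.

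MPEG1 encodes perforin-2, a pore-forming protein of phagocytes, and is the usual transgenic macrophage marker of zebrafish. Of 3 IDs with this symbol, which the name table does not tell apart, the most abundant was ENSDARG00000043093. It had 54.4, 87.8 and 157 TPM at 60 dpi, against 215, 151, 211 and 109 TPM at 7 dpi. The groups overlapped, because 60 dpi replicate 4 lay above 7 dpi replicates 2 and 4. The log2 fold change was -0.86 ± 0.40 (SE, limma adjusted p = 0.233).

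ENSDARG00000055290 had 9.91, 13.8 and 102 TPM at 60 dpi, against 71.0, 55.6, 65.6 and 147 TPM at 7 dpi. In both groups replicate 4 was the highest pool, and at 60 dpi it stood more than 7-fold above the others. The log2 fold change was -1.64 ± 0.69 (SE, limma adjusted p = 0.183). Without 60 dpi replicate 4 it was -2.65 ± 0.48 (limma adjusted p = 0.0116), past the threshold. For ENSDARG00000043093 the same omission gave -1.25 ± 0.39 (limma adjusted p = 0.098). Without replicate 4 of both groups, the pools with the fewest detected genes, both IDs passed (limma adjusted p = 0.015 for ENSDARG00000055290 and 0.0436 for ENSDARG00000043093) and 11 of 13 IDs fell. The third MPEG1 ID, ENSDARG00000078569, was listed at 0 in all 60 dpi pools and reached at most 0.85 TPM at 7 dpi, so it was not tested.

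grna.2 had the largest log2 fold change of the 13 tested IDs. Granulins are secreted, cysteine-rich growth factors abundant in myeloid cells, and zebrafish have short granulin genes, grna.1 and grna.2, beside the longer progranulin genes grna and grnb. grna.2 had 19.5, 0.16 and 0.49 TPM at 60 dpi, against 495, 378, 371 and 1094 TPM at 7 dpi. In replicates 2 and 4 at 60 dpi it was almost undetected, although it was the most abundant of the 14 IDs in 7 dpi replicates 2 and 4. grna.2 fell by 7.32 ± 0.83 on the log2 scale (SE, limma adjusted p = 0.000694), and by 5.90 to 8.64 across the 19 alternatives, all past the threshold.

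Other granulin genes fell or did not pass. grna.1, which lies beside grna.2 in the GRCz12tu annotation, had 100.4, 58.6 and 181 TPM at 60 dpi, against 2051, 1022, 1440 and 1641 TPM at 7 dpi, and fell by 3.85 ± 0.37 (SE, limma adjusted p = 0.000252). The progranulin gene grna had 65.6, 33.8 and 29.4 TPM at 60 dpi, against 337, 196, 292 and 683 TPM at 7 dpi (limma adjusted p = 0.0024). grnb had 10.1, 8.32 and 10.7 TPM at 60 dpi, against 55.7, 27.9, 25.4 and 9.27 TPM at 7 dpi (limma adjusted p = 0.247). The non-coding gene grnas overlaps grna.2 in that annotation. Its ID had 100.3, 84.0 and 445 TPM at 60 dpi, against 549, 328, 345 and 748 TPM at 7 dpi (limma adjusted p = 0.0962). The deposited values were made on build Zv9 with no stated annotation release, so whether grnas and grna.2 overlapped there is unknown. Without a stated strand setting, reads of overlapping genes cannot be assigned with certainty, so the values of grna.2 and of these neighbours are uncertain. In 60 dpi replicate 4 grnas was at 445 TPM and grna.2 at 0.49 TPM. The part of read assignment in the fall of grna.2 was not tested.

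Of 9 tested granulin and partner IDs outside the set 4 fell and 1 rose, and the total was 3 without 7 dpi replicate 3 or 60 dpi replicate 1 or 2. Sortilin, the product of SORT1, takes up progranulin, and its IDs ENSDARG00000056252 and ENSDARG00000029402 went opposite ways. The first had 0.39, 0.76 and 0 TPM at 60 dpi, against 11.3, 15.9, 15.3 and 59.9 TPM at 7 dpi (limma adjusted p = 0.013). The second had 72.2, 64.2 and 94.2 TPM at 60 dpi, against 33.1, 33.0, 25.8 and 26.5 TPM at 7 dpi (limma adjusted p = 0.0484, lost in 12 of 19 alternatives, among them the omission of any 1 of 6 libraries, all but 7 dpi replicate 4). PSAP, the gene of the lysosomal protein prosaposin, fell by 1.19 ± 0.26 (SE, limma adjusted p = 0.0196, not without 7 dpi replicate 3 or 60 dpi replicate 1 or 2).

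laptm5 encodes a lysosomal membrane protein of blood cells that limits receptor signalling. It had 30.5, 17.8 and 45.4 TPM at 60 dpi, against 378, 199, 218 and 308 TPM at 7 dpi. The groups were widely separated, and laptm5 fell by 3.15 ± 0.39 on the log2 scale (SE, limma adjusted p = 0.000948), a call that held in all 19 alternatives.

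LCP1 encodes L-plastin, which bundles actin filaments in leukocytes. It had 21.1, 12.6 and 16.5 TPM at 60 dpi, against 89.7, 63.1, 69.5 and 57.0 TPM at 7 dpi. The groups did not overlap, and LCP1 fell by 2.01 ± 0.40 on the log2 scale (SE, limma adjusted p = 0.0115). PLS3, the plastin gene of non-blood cells, had 45.0, 64.5 and 66.2 TPM at 60 dpi, against 82.7, 65.3, 54.7 and 63.9 TPM at 7 dpi (limma adjusted p = 0.816), with overlapping groups.

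CORO1A encodes coronin 1A, an actin regulator of leukocytes. It had 14.8, 0.85 and 18.4 TPM at 60 dpi, against 92.9, 98.0, 78.6 and 114 TPM at 7 dpi. Replicate 2 was far below the other 60 dpi pools, and CORO1A fell by 3.54 ± 0.70 on the log2 scale (SE, limma adjusted p = 0.0119). The widely expressed coronin gene CORO1C (ENSDARG00000035598) had 71.8, 75.9 and 93.5 TPM at 60 dpi, against 57.7, 38.3, 40.6 and 44.4 TPM at 7 dpi (limma adjusted p = 0.184). Its values were higher at 60 dpi, without overlap but not past the threshold.

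**Figure D2:**
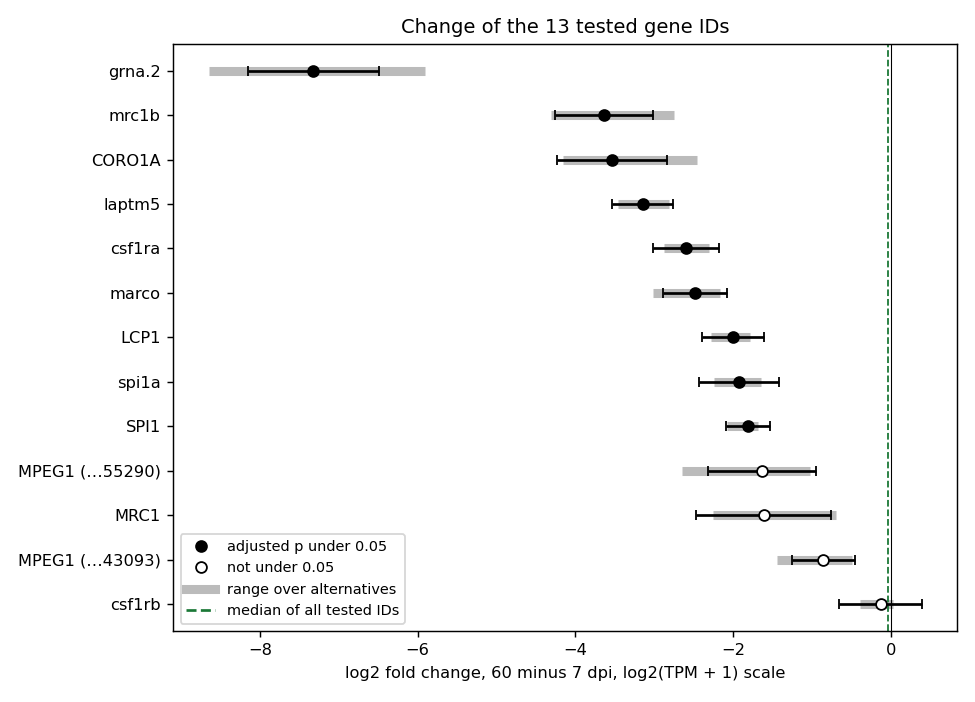
Log2 fold change (60 minus 7 dpi) of the 13 tested IDs with its standard error; filled points passed an adjusted p under 0.05, grey bars span the alternatives and the dashed line is the median of all tested IDs (-0.04). The points run from -7.32 for grna.2 to -0.13 for csf1rb, whose grey bar reaches just above 0.

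As a share of the mean of the 7 dpi pools, the 60 dpi pools kept very different parts of each gene. The median over the 13 tested IDs was 17.2% in replicate 1, 13.5% in replicate 2 and 19.5% in replicate 4. csf1rb stood at 93.5, 80.5 and 89.7% in these pools, SPI1 at 28.1, 26.7 and 28.5%, and grna.2 at 3.33, 0.0274 and 0.0838%. Thus SPI1 was even across the pools, whereas ENSDARG00000055290 (MPEG1) stood at 11.7, 16.3 and 120% and ENSDARG00000043093 (MPEG1) at 31.7, 51.1 and 91.2%. Replicate 4 was the highest 60 dpi pool for 7 of the 13 IDs, and replicate 2 the lowest for 8. For grna.2 that order rests on 0.16 TPM in replicate 2 against 0.49 TPM in replicate 4. Summed over the 14 IDs the level was 413, 365 and 724 TPM at 60 dpi, against 2826, 1874, 2374 and 3228 TPM at 7 dpi. The number of gene IDs at 1 TPM or more was 14061, 13352 and 10840 in the 60 dpi pools and 14599, 15305, 15431 and 9844 in the 7 dpi pools, so replicate 4 had the fewest in each group. The part of this in the MPEG1 values was not tested.

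**Figure D3:**
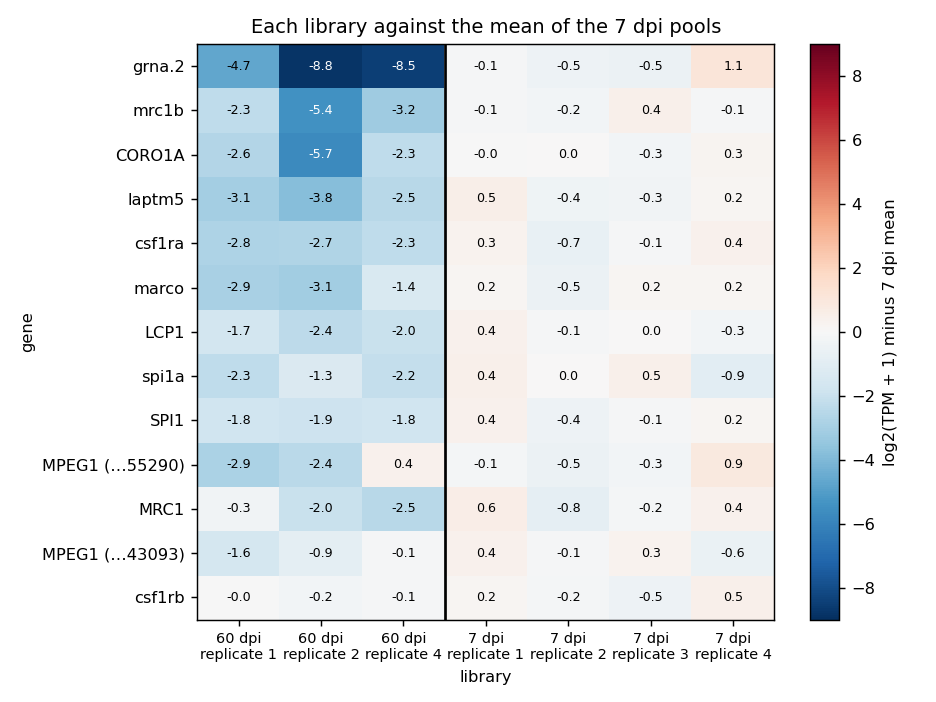
Log2(TPM + 1) of each of the 13 tested IDs (rows) in each library (columns, 60 dpi left of the black line), minus the mean of the 7 dpi pools. Values are printed in the cells; the row of SPI1 is even across the 60 dpi pools, while in replicate 4 ENSDARG00000055290 (MPEG1) lies above the 7 dpi mean and grna.2 far below it.

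Ratios between paralogs in the same library do not depend on how a library is scaled, apart from the added 1. The log2 ratio of csf1ra to csf1rb averaged -0.02 ± 0.29 at 60 dpi (SD, n = 3) and 2.44 ± 0.37 at 7 dpi (SD, n = 4), with no overlap between pools. A two-sided exact permutation test (35 arrangements of the group labels) gave p = 0.0571, the smallest that 3 against 4 pools allow, and 0.229 after Benjamini-Hochberg adjustment over the 4 pairs compared. spi1a to SPI1 was -3.35 ± 0.58 at 60 dpi and -3.24 ± 0.78 at 7 dpi (exact p = 0.857), a difference within the spread between pools. ENSDARG00000055290 to ENSDARG00000043093, both MPEG1, was -1.85 ± 1.07 at 60 dpi and -1.06 ± 0.999 at 7 dpi (exact p = 0.457). MRC1 to mrc1b was -2.46 ± 1.35 at 60 dpi and -4.49 ± 0.71 at 7 dpi (exact p = 0.114). In 60 dpi replicates 2 and 4 MRC1 had 0.42 and 0.03 TPM, less than the added 1. The ratios of this pair at 60 dpi therefore depend on the added 1, and no shift between the groups can be read from them. With 3 against 4 pools this exact test cannot reach 0.05 for any of the 4 pairs.

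**Figure D4:**
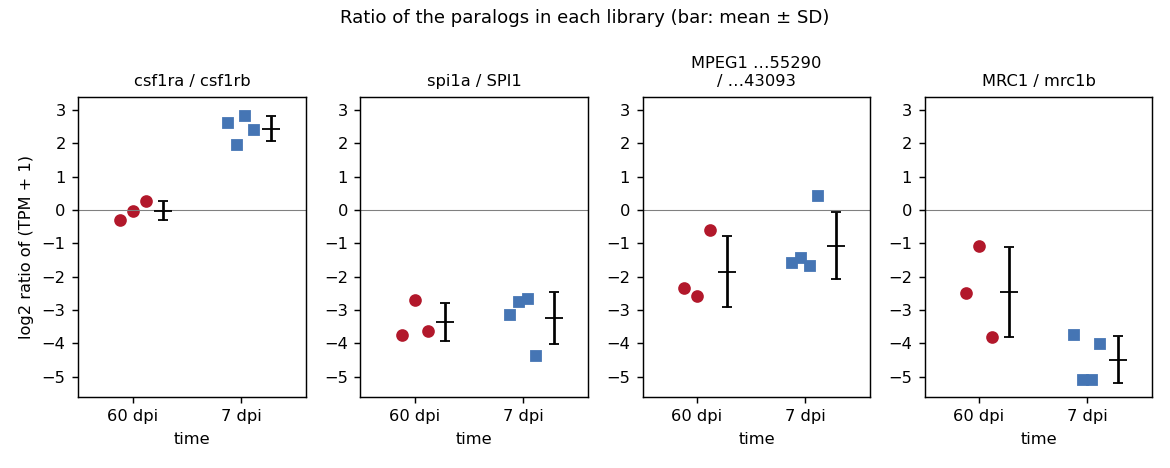
Log2 ratio of (TPM + 1) of each paralog pair in each library, 60 dpi on the left and 7 dpi on the right of each panel, with mean ± SD beside the points. csf1ra to csf1rb lies near 0 in all 60 dpi pools and at 1.95 to 2.83 in all 7 dpi pools; the groups overlap in the other pairs.

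Genes close in profile to the abundant MPEG1 ID, ENSDARG00000043093, were sought outside the set, with all members left out. Likeness was the root mean square difference over the 7 libraries between log2(TPM + 1) profiles, each centred on its own mean, among 5776 other named IDs with a mean of at least 10 TPM. The 10 closest were shisa10.1 (0.18), SMAD1 (0.20), PLA2G15, STAM, CERT1, ARFGEF2, RAB1B, PNPLA6, ELL2 and the ID named PGK2 (0.27). None of these 10 passed the limma test of 60 against 7 dpi, and 3 of them (CERT1, ELL2 and PGK2) had an unadjusted p under 0.05. They were picked for likeness, in the same libraries, to an ID that did not pass. This outcome therefore followed largely from the choice, and 6.88% of all tested IDs passed. The closest member was SPI1 at 0.71, which ranked 1064, and grna.2 was the farthest member at 3.64. The measure depends on the size of a change as well as its direction. IDs with much larger falls therefore lie far from this MPEG1 ID even where they move with it. The ranks do not show whether the members move together, and the measure describes these 7 libraries only.

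Around CSF1R, neither of the measured ligand genes passed the test. IL34 signals through CSF1R, and il34 had 23.5, 16.7 and 30.8 TPM at 60 dpi, against 88.9, 56.1, 75.4 and 35.7 TPM at 7 dpi, without overlap but not past the threshold (limma adjusted p = 0.0884). csf1a had 14.4, 7.33 and 7.91 TPM at 60 dpi, against 0, 3.49, 2.01 and 0 TPM at 7 dpi (limma adjusted p = 0.123). Its values were higher at 60 dpi, also without overlap but not past the threshold. csf1b was listed at 0 in all 7 libraries. Of 18 tested IDs of CSF1R partners and related cytokine receptors that are not members, 4 fell and none rose, with a median of -1.83. They were grb2b, an adaptor of receptor kinases, csf2rb, the shared beta chain of cytokine receptors, and the signalling chains fcer1g and fcer1gl. fcer1gl had 48.6, 30.3 and 76.9 TPM at 60 dpi, against 594, 375, 436 and 213 TPM at 7 dpi (limma adjusted p = 0.00203). fcer1g had 71.8, 128 and 6.14 TPM at 60 dpi, against 667, 398, 297 and 481 TPM at 7 dpi, lowest in the 60 dpi pool in which both MPEG1 IDs were highest (limma adjusted p = 0.0189, lost without 7 dpi replicate 1 or 4). Median-ratio, quantile and symbol-based scaling raised this count to 7, 7 and 8, and it was 1 without a mean-variance trend.

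Most other myeloid transcription factor genes did not pass the test. Of 25 tested non-member IDs, 3 fell, 1 rose and 21 did not pass, with a median of -0.66. These are 12% lower and 4% higher, against 3.68% and 3.2% of all tested IDs. IRF8, a factor of macrophage differentiation, had 99.3, 127 and 42.8 TPM at 60 dpi, against 67.1, 48.0, 56.0 and 47.5 TPM at 7 dpi (limma adjusted p = 0.452). CEBPA, which acts with PU.1 in myeloid precursors, had 130.4, 160.2 and 163 TPM at 60 dpi, against 401, 191, 239.9 and 291 TPM at 7 dpi, without overlap (limma adjusted p = 0.132). The IDs that fell were pparg (lost without 7 dpi replicate 1 or 3), TFEC (lost without 7 dpi replicate 1 or 3 or 60 dpi replicate 1) and relb (lost without 7 dpi replicate 1, 2 or 3 or 60 dpi replicate 1 or 2). The one that rose was CEBPD, a stress-responsive C/EBP gene, with 143, 137 and 175 TPM at 60 dpi, against 11.1, 14.4, 20.1 and 0 TPM at 7 dpi (limma adjusted p = 0.013). The 4 calls became 8 (7 lower) with symbol-based scaling and 6 (5 lower) with median-ratio or quantile scaling. They became 1 without 7 dpi replicate 1 or 3, without a TPM filter or without a trend, and 2 without 60 dpi replicate 1.

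Scavenger and uptake receptor genes other than marco and the mannose receptors were mostly not past the threshold. Of 24 tested non-member IDs 3 fell and none rose, with a median of 0.20 that turned to -0.17 without 60 dpi replicate 1, and to -0.02 with symbol-based scaling or with a minimum of 5 TPM in 3 libraries. havcr1, a gene of the TIM family of phosphatidylserine receptors, had 56.6, 79.2 and 189 TPM at 60 dpi, against 758, 351, 362 and 424 TPM at 7 dpi (limma adjusted p = 0.00933). The calls of LY75 and SCARB1 were lost in 9 and 11 of 19 alternatives, and 1 call was made without 7 dpi replicate 1, 2 or 3 or 60 dpi replicate 2 or 4. MRC2, the mannose receptor family gene of fibroblasts, had 2.87 to 4.69 TPM at 60 dpi, against 5.39 to 27.8 TPM at 7 dpi (limma adjusted p = 0.331).

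Among actin regulators of the kind LCP1 and CORO1A belong to, 15 of 37 tested non-member IDs fell and none rose, with a median of -1.43. Without 7 dpi replicate 1 or 3 the count was 9 each. pfn1, a profilin gene, had 209, 94.9 and 336 TPM at 60 dpi, against 1321, 1008, 1013 and 1552 TPM at 7 dpi (limma adjusted p = 0.00239). ARPC1B, the Arp2/3 complex subunit of blood cells, had 40.8, 32.2 and 59.3 TPM at 60 dpi, against 294, 178, 195 and 299 TPM at 7 dpi (limma adjusted p = 0.00228). Its widely expressed counterpart ARPC1A had 59.4, 72.7 and 164 TPM at 60 dpi, against 123, 69.4, 89.2 and 102 TPM at 7 dpi (limma adjusted p = 0.947). RHOG (ENSDARG00000004301) and CAPG (ENSDARG00000099672), a GTPase and an actin-capping gene, also fell.

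Many IDs of the macrophage and leukocyte lists fell as well. These lists share IDs with those above, among them csf2rb, fcer1g, fcer1gl, havcr1, pfn1, ARPC1B and CAPG, so the counts of the lists are not independent. All lists were chosen with earlier results of these data known, so their counts are a description and not separate support. Of 37 tested macrophage IDs outside the set 25 fell and none rose, with a median of -2.67, and 19 to 24 fell when 1 library was left out. They included c1qb and c1qc, which encode chains of complement C1q, and lygl1, a lysozyme gene. The 39 matched entries of the macrophage list gave 45 IDs, because mfap4 and f13a1 each matched more than 1 ID. IDs that share a symbol can share reads, so the IDs of this list are not independent either. c1qb had 42.9, 27.1 and 40.8 TPM at 60 dpi, against 499, 336, 430 and 601 TPM at 7 dpi (limma adjusted p = 0.000127). cd68, a lysosomal protein gene used as a macrophage marker, had 195, 167 and 353 TPM at 60 dpi, against 1207, 728, 896 and 882 TPM at 7 dpi (limma adjusted p = 0.00343). timd4, a marker of resident macrophages in mice, had 2.84, 3.97 and 0 TPM at 60 dpi, against at most 1.17 TPM at 7 dpi (limma adjusted p = 0.384). Of 43 tested leukocyte IDs outside the set 23 fell and 1, lsp1a, rose, with a median of -2.24 when the members on the list are included, and the total was 15 without 7 dpi replicate 1 and 14 without 7 dpi replicate 3. ptprc, which encodes the leukocyte antigen CD45, had 35.1, 50.4 and 19.5 TPM at 60 dpi, against 233, 136, 143 and 175 TPM at 7 dpi (limma adjusted p = 0.0052).

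At an unadjusted limma p under 0.05, no macrophage ID outside the set was higher at 60 dpi, nor any neutrophil or lymphocyte ID, against 3 of the actin regulators, 3 of the myeloid transcription factors, 2 of the scavenger receptors, and 1 each of the CSF1R partners, the granulins and their partners, the leukocyte genes and the dendritic cell genes. No red cell or thrombocyte ID was higher either. A lack of higher IDs was therefore not confined to the lists of white blood cells. Of other lists, 7 of 26 fibroblast, 9 of 23 cardiomyocyte and 4 of 22 endothelial IDs were higher, and 5, 0 and 1 were lower. At the same cut 32 of 37 macrophage, 12 of 17 neutrophil, 17 of 27 lymphocyte and 8 of 18 red cell and thrombocyte IDs were lower. The share of all tested IDs at this cut was not counted, so these counts cannot be set against it.

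The sorted pools held genes of several cell types. Fibroblast genes summed to 10225 to 11835 TPM at 60 dpi, against 8313 to 10842 TPM at 7 dpi. Of 26 tested fibroblast IDs 5 rose and 2 fell, and the total was 4 without 7 dpi replicate 2 or any 1 of the 60 dpi pools. The collagen gene col1a1a had 1767, 985 and 1726 TPM at 60 dpi, against 784, 1069, 1379 and 952 TPM at 7 dpi (limma adjusted p = 0.354). Periostin gene POSTN (ENSDARG00000104267) had 137, 99.2 and 91.0 TPM at 60 dpi, against 902, 1095, 967 and 828.7 TPM at 7 dpi (limma adjusted p = 0.000101), so both fibroblast genes were detected in every pool.

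The macrophage list, with the member IDs that matched it, summed to 3575 to 7042 TPM at 60 dpi, against 13548 to 20684 TPM at 7 dpi. No MPEG1 ID was in this list or sum, because its entries mpeg1.1, mpeg1.2 and mpeg1.3 matched no symbol. Neutrophil genes summed to 804 to 1008 TPM at 60 dpi, against 1270 to 1922 TPM at 7 dpi, and 6 of 17 fell (2 without 7 dpi replicate 2 or 3, 3 without 60 dpi replicate 2); cxcr1 and npsn were listed at 0 in all 60 dpi pools. Lymphocyte genes summed to 48.7 to 216 TPM at 60 dpi, against 394 to 1034 TPM at 7 dpi, and 7 of 27 fell (3 without 7 dpi replicate 1, 4 without 7 dpi replicate 3 or 60 dpi replicate 2); lck, cd79b, cd37 and nkl.4 were listed at 0 in all 60 dpi pools. Dendritic cell genes, led by cd74a and cd74b, summed to 2170 to 4518 TPM at 60 dpi, against 6427 to 8186 TPM at 7 dpi, and 2 of 13 fell (1 without 7 dpi replicate 2, 3 or 4 or 60 dpi replicate 2). The median of the dendritic cell list was -0.45. cd74a, cd74b and IRF8 are on the macrophage list too, as is il1b of the neutrophil list, so these sums share IDs.

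Red cell and thrombocyte genes summed to 832 to 6342 TPM at 60 dpi, against 3408 to 7496 TPM at 7 dpi, and 3 of 18 fell, against 7 with symbol-based and 5 with median-ratio scaling. Endothelial genes summed to 309 to 362 TPM at 60 dpi, against 128 to 328 TPM at 7 dpi, with none of 22 past the limma threshold and 5 at an unadjusted p under 0.05 (4 of them higher), and 1 call without 60 dpi replicate 1. Cardiomyocyte genes summed to 1337 to 6450 TPM at 60 dpi, against 1071 to 1637 TPM at 7 dpi, and 2 of 23 rose, against 10 without 60 dpi replicate 1, 1 without 7 dpi replicate 1 or 2, and none without any other library. Thus some neutrophil and lymphocyte genes fell with the macrophage genes, while the dendritic cell sum was made in part of the same IDs. The part of other white blood cells in the values of LCP1, CORO1A, laptm5 and SPI1, which these cells also use, was not tested.

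**Figure D5:**
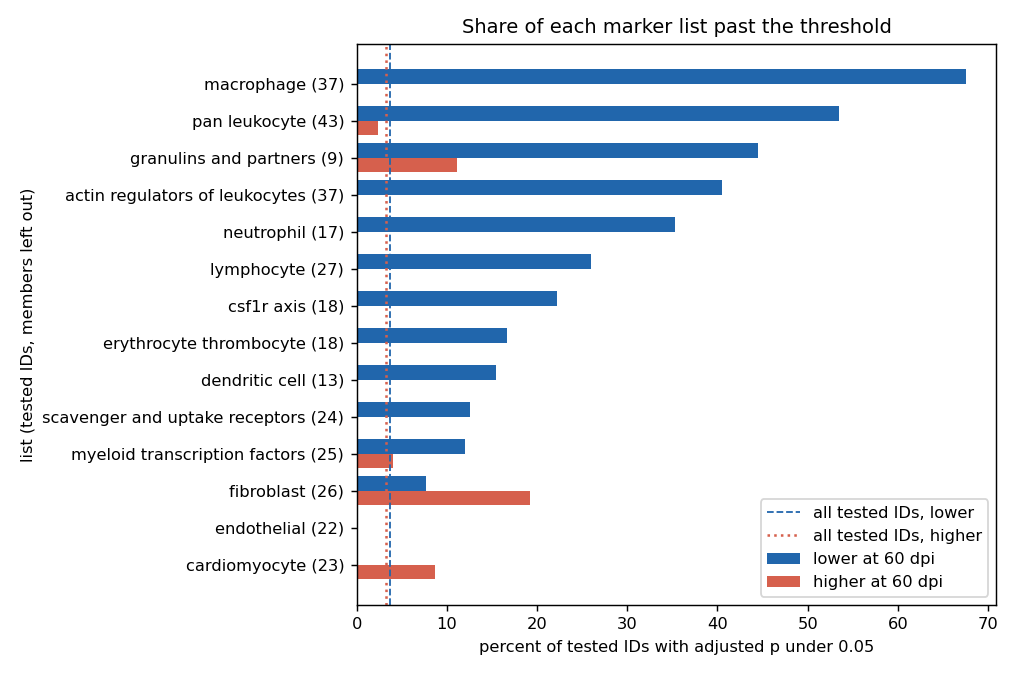
Percent of the tested IDs of each list, the 14 member IDs left out, that passed an adjusted p under 0.05 and were lower (upper bars) or higher (lower bars) at 60 dpi; the number of tested IDs is in brackets and vertical lines mark 3.68% and 3.2% of all tested IDs. The macrophage and leukocyte lists have the longest bars of lower IDs, and the fibroblast list the longest of higher ones. The lists were chosen with earlier results of these data known.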

How the data were processed

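The authors deposited a single table of TPM values covering 31388 gene IDs. The submitters' processing notes list CASAVA 1.8.2, cutadapt, RSEM 1.2.25 and genome build Zv9; an aligner, annotation release or strand setting is not given in the sources used here. Per the labels' protocols, an amplifying single-cell RNA kit and a TruSeq kit were used, so scarce transcripts can be lost at random and a value of 0 need not mean absence. RSEM shares reads among similar transcripts, so paralog values are uncertain.

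The supplied name table named 25925 IDs (82.6%). The 15130 IDs that reached 1 TPM in 3 or more libraries were fitted with limma 3.58.1 in R 4.3.3 on log2(TPM + 1), with a mean-variance trend and a single term for time. P-values were two-sided and Benjamini-Hochberg adjusted over all tested IDs. Fold changes on this scale understate changes of low genes. The fit was run on simulated data with independent normal noise for each gene. Such data hold no effects shared across a library and no lost transcripts, so they do not check the calls against these. Groups came from sample titles. Tables and figures used matplotlib 3.10.9, numpy 2.4.6, pandas 2.3.3 and Python 3.11.15.

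Members, the 14 lists and the naming rule were chosen with earlier results of these data known. Named genes were all members, some of their paralogs, ligands and partners, up to 4 IDs per list by smallest p, and the 10 profiles closest to MPEG1. PLS1, another CORO1C ID and the other matched coronin genes are not shown, so PLS3 and CORO1C are a selection. The genes cd68, timd4, ptprc, lsp1a, col1a1a, ARPC1A, IRF8, CEBPA, relb, stab2 and the markers listed at 0 were added after their values were seen. Of 417 list entries 286 matched by symbol, 68 matched without the paralog letter and 63 did not match. The alternatives were other pseudocounts, filters, scalings and variance models, a replicate block and omitted libraries.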

Additional observations from a re-analysis of the deposited data

Results flagged for a closer look

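In 3 of the 14 IDs, 1 of the 4 pools at 7 dpi lay far from the other pools, with a gap to the nearest that exceeded the 95% critical value of Dixon's test; chance gives such a gap in about 1 in 20 groups. marco had 356 TPM in 7 dpi replicate 2, below the other pools at 572 to 590.4 TPM. ENSDARG00000055290 (MPEG1) had 147 TPM in 7 dpi replicate 4, above 55.6 to 71.0 TPM in the others. ENSDARG00000078569 (MPEG1) had 0.85 TPM in the same library, against 0.05 to 0.09 TPM in the others, all under the minimum for testing.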

How the results depend on the processing

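The 9 calls among the 13 tested IDs became 8 to 9 when 1 library was left out and 7 to 11 in the other alternatives except the fit without a mean-variance trend, which gave 4 (grna.2, mrc1b, laptm5 and csf1ra). The count over all IDs, 1041, was 596 with no TPM filter, 477 without a trend, 322 with the replicate block and 581 to 1181 with 1 library left out. Without 7 dpi replicate 1, the median over all IDs was 0.11 in place of -0.04, and with symbol-based scaling it was -0.26. Deviations of same-numbered libraries of the groups had small, positive correlations (0.0054, 0.0145 and 0.028), so the numbers were not taken to pair them. Every library with a same-numbered partner correlated best with it, except 60 dpi replicate 1, which did so with 7 dpi replicate 3 (0.019). Pairing or a shared batch is therefore not excluded. With the replicate block 7 IDs fell, and LCP1 and spi1a did not pass (limma adjusted p = 0.082 and 0.164). The log2 fold change of csf1rb, -0.13, was 0.0086 without replicate 4 of both groups, and ran from -0.287 to 0.0234 with 1 library left out, above 0 only without 7 dpi replicate 4. The cause was not tested. Without a trend the macrophage list had 11 calls in place of 25 and the leukocyte list 9 in place of 24. The same fit made 8 calls among actin regulators, 3 each among neutrophil and granulin genes, 1 among fibroblast genes and none among scavenger receptor, dendritic cell and cardiomyocyte genes. With the replicate block there were 11 leukocyte, 7 actin regulator, 4 lymphocyte, 4 fibroblast, 2 granulin, 2 transcription factor, 1 neutrophil, 1 scavenger receptor and 1 dendritic cell calls and no cardiomyocyte call. Without a TPM filter there were 4 fibroblast, 3 lymphocyte, 2 neutrophil and 1 dendritic cell calls and no cardiomyocyte call. A pseudocount of 5 left 4 lymphocyte calls, and the 2 cardiomyocyte calls became 1 under every other scaling. Endothelial genes had 2 calls with median-ratio or quantile scaling and 1 with symbol-based scaling. The depth is unknown, so the order of levels below about 1 TPM is uncertain.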
